A study of Mus musculus with 477 samples.

Results

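Luminal epithelial cells of the mammary gland were compared between pregnant mice whose *Brca1* had been deleted and a pregnant mouse with wild type *Brca1*. The cells were chosen by their source label: pBrL and pBr53L for the *Brca1*-deficient arm and p53L for the wild type arm. They made up 198 of the 477 cells and 4 of the 11 mice of the series, in which single cells had been captured on Fluidigm C1 microfluidic chips and their polyadenylated RNA amplified and sequenced. The pBrL cells came from *MMTV-Cre; Brca1 fl/fl* mice (71 cells of mouse 1 and 38 of mouse 2), the pBr53L cells from 1 *MMTV-Cre; Brca1 fl/fl; Trp53 fl/+* mouse (53 cells) and the p53L cells from 1 *MMTV-Cre; Trp53 fl/+* mouse (36 cells).

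All 4 were females of 3 to 4 months at day 12.5 of pregnancy, in a mixed background of C57BL/6 and 129/Sv. All carried MMTV-Cre, a Cre recombinase driven by a viral promoter that is active in mammary epithelium, and the *ROSA mT/mG* reporter, which turns cells green where Cre has acted. Viable green cells with high CD24 and low CD29, the surface profile of luminal cells, had been sorted from the fourth mammary glands. The control mouse thus carried Cre and a floxed *Trp53* allele, and no mouse of this comparison was wild type for everything. Only pBr53L and p53L shared the *Trp53* allele. The methods of the study give it as *Trp53 fl/+*, while its legend for flow cytometry of these genotypes writes *Trp53 fl/fl*. Virgin females, also of 3 to 4 months, enter the last comparison. vBrL (35 cells, chip SC10) had the genotype of pBrL, vBr53L (39 cells) that of pBr53L and v53L (40 cells) that of p53L.

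The 4 mice were on different chips (SC5, SC6, SC7 and SC9 in the order above), SC7 and SC9 being shared with the virgin mice vBr53L and v53L and SC6 with tumor cells, so within the comparison chip, mouse and genotype cannot be told apart. The wild type arm held 1 mouse. A permutation of the 4 mice cannot give an exact p below 0.25, and the p-values below come from a model over all genes that takes p53L to vary as much as the deficient mice vary among themselves. Since cells of 1 mouse share their source, reads were summed per mouse, and levels are given as CPM, the counts of a gene scaled to the same total in every mouse. They are not divided by gene length, so they compare mice and not genes.

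BRCA1 is needed for the repair of DNA double-strand breaks by homologous recombination, in which the lost sequence is copied from the sister chromatid. During pregnancy, progesterone and prolactin drive luminal cells first to divide and then to become alveolar cells, a step that needs the transcription factors ELF5 and STAT5 and that ends in the synthesis of caseins and milk fat. Luminal cells are the cells from which tumors arise in mice that lack *Brca1* in the mammary gland, so the state of these cells before any tumor is the question that the comparison addresses.

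The summed depth was 115.8 M reads in pBrL mouse 1, 77.04 M in pBrL mouse 2, 100.7 M in pBr53L and 45.8 M in p53L. The median cell of p53L had 1.30 M reads and 4317 detected genes, against 1.60 to 2.17 M reads and 4794 to 5723 genes in the deficient mice. A read of 12871 genes was found in p53L and of 14236 to 15632 genes in each deficient mouse. Luminal keratins were present in every mouse: *Krt18* had 3256 to 3452 CPM in the deficient mice and 3089 in p53L, with a read in every one of the 198 cells. Marker sums of other cell types were small. Fibroblast markers reached 25.4 CPM and endothelial markers 11.9 CPM in any mouse, red blood cell markers 3.21 CPM and adipocyte markers 0.570 CPM. Immune markers summed to 9.60, 14.9 and 64.3 CPM in the deficient mice and 10.6 in p53L. Basal markers summed to 579, 225 and 163 CPM against 102 CPM, and the contractile basal gene *Acta2* drew 99.1% of its reads in pBrL mouse 1 from 1 cell.

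*Brca1* itself (chromosome 11, 101488764 to 101551955, GRCm38, minus strand) had 2.03 CPM in pBrL mouse 1, 31.8 in pBrL mouse 2, 31.5 in pBr53L and 5.21 in p53L. The wild type mouse lay inside the range of the deficient mice. Reads of any exon entered these values, so they do not show whether the floxed part was lost. *Trp53* (chromosome 11, 69580359 to 69591873) had 413, 515 and 243 CPM in the deficient mice and 177 in p53L, with p53L lowest and an edgeR quasi-likelihood adjusted p of 0.537.

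Of 14957 genes tested, 2 differed between the 3 deficient mice and p53L at an adjusted p under 0.05 (edgeR quasi-likelihood test, Benjamini-Hochberg), which is 0.0134% of the genes. *Ahcyl2* was higher and *Ereg* lower in the deficient mice. *Ereg* lies outside the rule by which genes were chosen to be named and is given because it was called. At an unadjusted p under 0.05 there were 912 genes higher in the deficient mice (6.1%) and 508 lower (3.4%). DESeq2 on the same sums called 1388 genes, 1193 higher and 195 lower, both edgeR calls among them.

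*Ahcyl2* (chromosome 6, 29768011 to 29912310) encodes a protein of the S-adenosylhomocysteine hydrolase family. It had 101 CPM in pBrL mouse 1, 88.5 in pBrL mouse 2 and 56.3 in pBr53L, and 0.153 CPM (7 reads) in p53L. The deficient mice were all far above p53L, by 8.84 ± 0.84 (log2 fold change, SE; edgeR adjusted p 0.0206). After each cell was thinned to 100000 reads, it was read in 23 of 71, 13 of 38 and 16 of 53 deficient cells and in 0 of 36 p53L cells (upper limit of the exact 95% binomial interval 9.74%; such intervals cover counting error only). In the virgin *Trp53* mutant mouse v53L, on the same chip as p53L, *Ahcyl2* had 89.3 CPM and was read in 12 of 40 cells. It was called in 11 of 15 alternative settings, with adjusted p from 5.33e-28 to 0.491, and lost the call without pBrL mouse 1 (adjusted p 0.0603).

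*Ereg* (chromosome 5, 91074622 to 91093646) encodes epiregulin, a ligand of the EGF receptor. It had 0 reads in both pBrL mice, 1 read in pBr53L and 2494 reads (54.4 CPM) in p53L. Of these, 2493 came from a single p53L cell. The fitted log2 fold change was -13.63 ± 1.28 (SE; edgeR adjusted p 0.0206), and without that cell the test called 1 gene, *Ahcyl2* (edgeR adjusted p 0.0428). The ligand genes *Epgn* and *Areg* lie within the same stretch of chromosome 5. *Epgn* had 0.889, 0 and 8.98 CPM in the deficient mice and 55.2 in p53L, and *Areg* had 1.81, 6.71 and 0.914 CPM against 22.3. Both were highest in p53L, with adjusted p of 0.540 and 0.496 (edgeR), and were read in 4 and 5 of its 36 cells. Of the 4 other EGF receptor ligands, *Hbegf* lay lower in all 3 deficient mice, at 54.7, 76.6 and 125 CPM against 165, and *Egf* higher, in a list written after these values were seen.

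To describe groups of genes, each gene was sorted by whether all 3 deficient mice lay on the same side of p53L in CPM. Of all tested genes 34.2% lay above p53L in all 3 mice and 18.5% below, so either position alone is common. The counts of each list below are to be set against these shares. With CPM scaled by the TMM composition factors these shares were 28.7% and 24.3%. The median log2 fold change was 0.42 over all tested genes, and 2623 of them had no read in p53L. Over the 8111 genes averaging 10 CPM or more it was 0.04, and 38.7% of these lay above and 21.1% below p53L in all 3 deficient mice. The median over all tested genes was 0.38 with RLE size factors and 0.62 with library size alone, so differences of rarely read genes are to be read against a shift of this size.

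The genes named by rule had to separate all 3 deficient mice from p53L, reach 10 CPM in the higher arm and be read in at least 20% of the cells of each mouse of that arm. The 12 highest-ranked in each direction are shown in the plot of named genes. *Ahcyl2* was the only one called, and the other 23 were filled in by unadjusted p, with edgeR adjusted p from 0.0524 to 0.291.

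**Figure D1:**
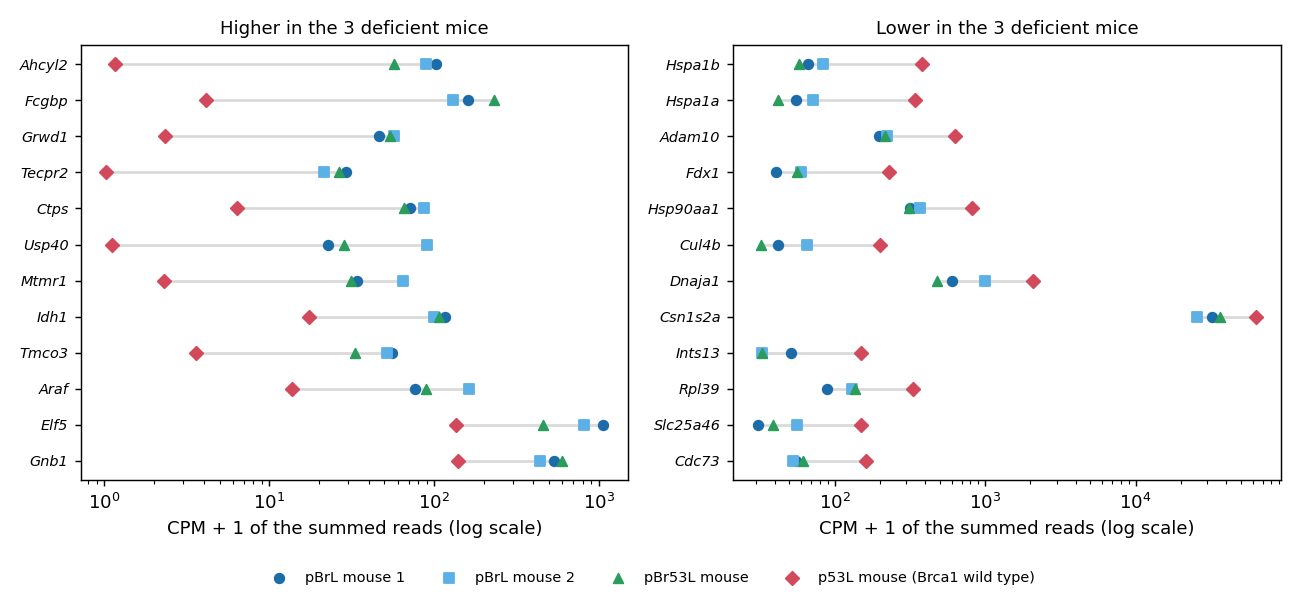
CPM + 1 (log scale) of the 24 genes named by rule, 1 point per mouse. The p53L mouse is the lowest point for the 12 genes on the left and the highest for the 12 on the right, which the rule required. The gap is widest for *Ahcyl2*, which had 7 reads in p53L.

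Among the 12 higher in the deficient mice, *Fcgbp*, which encodes a mucin-like secreted protein, had 160, 130 and 231 CPM against 3.14 in p53L (log2 fold change 5.59 ± 0.63; edgeR adjusted p 0.0524). It had 622 CPM in v53L on the chip of p53L. *Idh1*, a cytosolic enzyme that makes NADPH, had 116, 99.0 and 106 CPM against 16.5, and *Gnb1*, a G protein subunit, 531, 439 and 598 CPM against 139. *Ctps*, the enzyme that makes CTP, had 70.4, 86.3 and 64.7 CPM against 5.37. The rule and the ranking by p favour such genes, in which the deficient mice lie close together and p53L apart. None of *Idh1*, *Gnb1* and *Ctps* was called (edgeR adjusted p 0.264, 0.291 and 0.196). *Tecpr2* had 1 read in p53L, and its ratio of 1130 between the deficient mean and p53L has a 95% counting interval from 203 to 44643.

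*Elf5* (chromosome 2, 103411688 to 103450989) encodes the ETS factor that directs alveolar differentiation. It had 1063 CPM in pBrL mouse 1, 808 in pBrL mouse 2, 456 in pBr53L and 135 in p53L. The 3 deficient mice were all above p53L, and pBr53L, which shares the *Trp53* allele with p53L, was the nearest to it. The log2 fold change was 2.31 ± 0.48 (edgeR adjusted p 0.291; DESeq2 adjusted p 4.99e-05). *Elf5* was read in 91.7% to 94.4% of the thinned cells of each mouse, so the share of cells with a read was alike while the level was not. Of the 18 luminal progenitor and alveolar regulators, 10 lay higher and 4 lower in all 3 deficient mice, with a median log2 fold change of 0.30 against 0.42 over all tested genes. The 10 include *Elf5*, a named gene whose side the rule fixed. Of all tested genes, 34.2% lay higher and 18.5% lower. The log2 difference of the summed list was 0.31 in CPM and 0.10 with TMM-scaled CPM, where 8 lay higher and 5 lower. *Ehf*, another ETS factor, had 1115, 998 and 892 CPM against 713. *Stat5a*, which carries the prolactin signal, had 123, 102 and 80.3 CPM against 62.8. *Gata3*, a regulator of luminal identity, lay the other way, at 370, 362 and 281 CPM against 485. So did *Cd14*, a receptor for bacterial lipopolysaccharide, at 331, 207 and 317 CPM against 661. None of these 4 passed the adjusted test (edgeR adjusted p 0.722, 0.716, 0.477 and 0.303).

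Milk protein genes lay on the other side from *Elf5*. They took 13.5%, 10.7% and 13.9% of all reads in the deficient mice and 18.96% in p53L. Of 12 genes, 6 lay lower in all 3 deficient mice and 1 higher, and the median log2 fold change was -0.54. Of all tested genes, 18.5% lay lower and 34.2% higher. The 6 include *Csn1s2a*, a named gene whose side the rule fixed. *Csn1s2a* (chromosome 5, 87774567 to 87788797), a casein gene, had 32358, 25584 and 36447 CPM against 62867 (log2 fold change -1.20 ± 0.23; edgeR adjusted p 0.271). *Csn1s1*, an alpha casein gene on the same chromosome, had 22651, 19484 and 23877 CPM against 36572. The beta casein gene *Csn2* overlapped, at 52124, 37770 and 46823 CPM against 51276. Of the remaining members, *Spp1* (osteopontin) had 3662, 3591 and 3064 CPM against 5468, and *Cel*, a milk lipase, was the gene that lay higher, at 155, 128 and 108 CPM against 49.9. Without pBr53L the test called *Csn1s2a* (edgeR adjusted p 0.0142). Because the milk proteins take such a share of the reads, CPM of other genes depend on them. The TMM factors adjust for this, and with them 8 milk protein genes lay lower, against 24.3% of all tested genes. The count was 3 without cycling cells and 10 with 30 cells per mouse. The shares of all tested genes were then 19.6% and 18.3%.

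Prolactin acts on casein genes through STAT5, which binds a short palindrome. The letters TTCNNNGAA were searched on both strands in the 250 bases before the transcription start in RefSeq promoters (GRCm38.p6). They were present in 3 of 9 milk protein genes with a promoter in the table, against 8.13% of all 27025 genes. The matched stretches of these 3 are shown, 5′ to 3′ on the strand of the gene with the match in capitals, to show where the match lies in genes whose levels can be set side by side.
Csn1s1 (chr5:87666088-87666136, plus strand): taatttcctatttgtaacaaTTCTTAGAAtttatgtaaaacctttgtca
Csn2 (chr5:87699490-87699538, minus strand): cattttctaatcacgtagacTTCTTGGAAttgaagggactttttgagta
Glycam1 (chr15:103565198-103565246, minus strand): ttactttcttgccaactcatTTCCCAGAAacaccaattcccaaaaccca
The match starts 100, 93 and 145 bases before the start. *Csn1s1* and *Glycam1* lay lower in all 3 deficient mice and *Csn2* did not, so genes with the match did not lie on one side. *Glycam1*, which encodes a mucin secreted into milk, had 3614, 2717 and 5044 CPM against 6209.

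**Figure D2:**
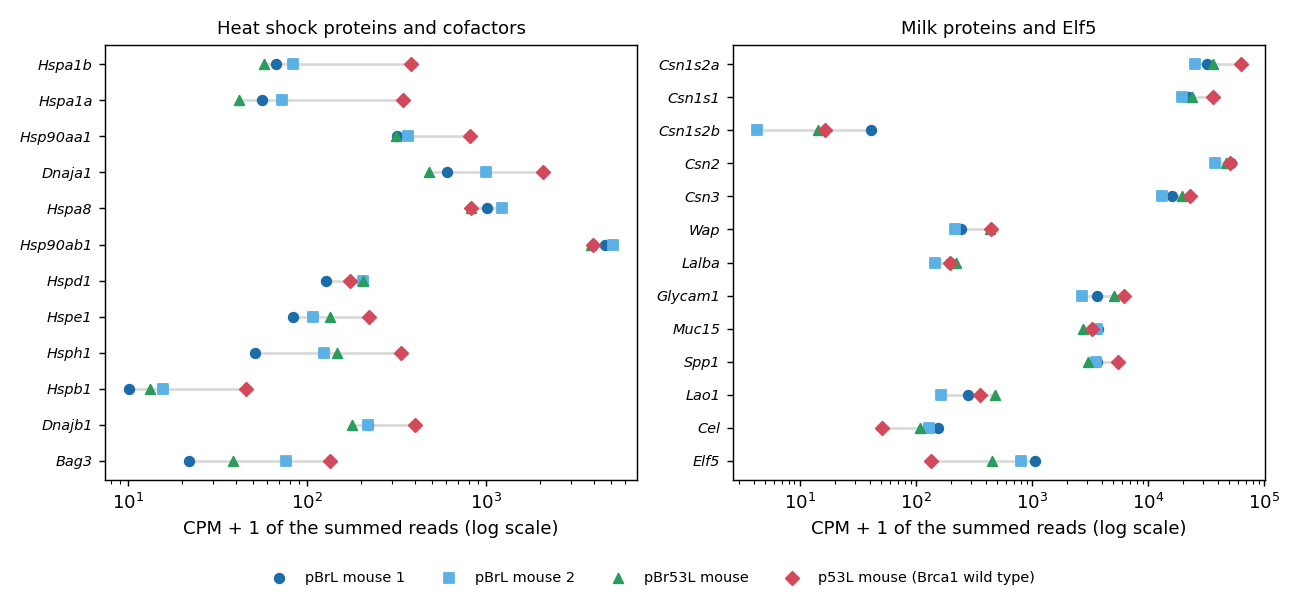
CPM + 1 (log scale) of 12 heat shock genes (left) and of 12 milk protein genes and *Elf5* (right), 1 point per mouse. The p53L mouse is the highest for 9 of the 12 heat shock genes and 6 of the 12 milk protein genes, and the lowest for *Elf5* and *Cel*. The heat shock list was written after the values were seen. The naming rule fixed the side of *Hspa1a*, *Hspa1b*, *Hsp90aa1*, *Dnaja1*, *Csn1s2a* and *Elf5*. Of the 8 heat shock genes outside the named ones, p53L is the highest for 5.

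The named genes that lay lower held 4 heat shock genes, whose products fold proteins and are made in excess when cells are stressed. *Hspa1a* (chromosome 17, 34969190 to 34972156), the inducible HSP70, had 54.7, 71.3 and 40.95 CPM in the deficient mice and 341 in p53L. The deficient mice stood well below p53L, with a log2 fold change of -2.83 ± 0.35 (edgeR adjusted p 0.0736; DESeq2 adjusted p 5.82e-09). *Hspa1b*, its near-identical neighbour, had 65.7, 82.97 and 56.6 CPM against 382. Since reads of this gene pair can be split between the copies, they are 1 observation rather than a pair. In virgin v53L, on the chip of p53L, *Hspa1a* had 10.2 CPM, and its p53L reads were spread over 33 of the 36 thinned cells, the top cell holding 12.8%.

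*Hsp90aa1*, the inducible HSP90, had 317, 366 and 313 CPM against 816, and the cochaperone *Dnaja1* 605, 1000 and 478 CPM against 2089 (edgeR adjusted p 0.250 and 0.264). A list of 12 heat shock genes was written after these values were seen. The rule fixed the side of the 4 named ones, so they are left out of the count. Of the other 8, 5 lay lower in all 3 deficient mice and 0 higher, with a median log2 fold change of -1.22. Of all tested genes, 18.5% lay lower and 34.2% higher. *Hsph1*, a nucleotide exchange factor of HSP70, had 50.4, 123 and 146 CPM against 334. The constitutive members did not separate: *Hspa8* had 1014, 1233 and 826 CPM against 828, and *Hsp90ab1* 4640, 5116 and 3847 CPM against 3972.

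Heat shock factors bind inverted repeats of GAA. The heat shock element, searched as GAA, TTC and GAA with any 2 bases between neighbours, was looked for on both strands in the same window, and 2 of 9 heat shock genes with a promoter in the table held it, against 0.514% of all genes. *Hsp90aa1*, *Hspa8* and *Hsp90ab1* had no entry, and *Hspa1a* and *Hspa1b* were searched without a match of these letters. The 2 are *Hspe1* and *Hspd1*, the mitochondrial chaperonin pair, which share 1 promoter between them, so the matches are 1 stretch of DNA. Overlapping matches on its strands are printed from the strand of each gene, with one of the matches in capitals.
Hspe1 (chr1:55088044-55088096, plus strand): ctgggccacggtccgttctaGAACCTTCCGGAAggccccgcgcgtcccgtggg
Hspd1 (chr1:55088039-55088091, minus strand): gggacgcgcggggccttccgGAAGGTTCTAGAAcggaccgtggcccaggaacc
The neighbours did not lie alike. *Hspe1* had 82.9, 108 and 133 CPM in the deficient mice and 222 in p53L, with all 3 below. *Hspd1* had 126, 204 and 205 CPM against 173 and overlapped.

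The chaperones of the endoplasmic reticulum, which fold secreted proteins, leaned the same way. Of 20 genes of ER folding and the unfolded protein response, 10 lay lower and 3 higher in all 3 deficient mice, with a median log2 fold change of -0.36. The shares of all tested genes were 18.5% and 34.2%. *Hspa5*, the ER form of HSP70, had 1114, 1211 and 1146 CPM against 2091, and the disulfide isomerase *Pdia3* 501, 444 and 492 CPM against 786. The 3 deficient mice lay within a narrow range in both, below p53L (edgeR adjusted p 0.291 and 0.357). *Edem1*, which sends misfolded proteins to degradation, lay higher, at 276, 365 and 244 CPM against 143.

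Genes of mitosis and G2/M lay mostly higher in the deficient mice. Of 20 genes, 18 lay above p53L in all 3 mice and 0 below, with a median log2 fold change of 0.88, and 5 passed an unadjusted p under 0.05. None was called. *Ccnb1* (chromosome 13, 100778650 to 100786570), the cyclin that starts mitosis, had 57.8, 65.1 and 36.9 CPM in the deficient mice and 2.99 in p53L (log2 fold change 3.94 ± 0.72; edgeR adjusted p 0.264). *Cdk1*, its kinase, had 75.7, 165 and 113 CPM against 41.8, and *Hmmr*, a spindle protein, 58.8, 77.8 and 89.96 CPM against 15.6. The exceptions were *Plk1*, at 11.9, 21.03 and 13.6 CPM against 14.03, and *Bub1*, at 39.4, 75.6 and 17.6 against 39.8.

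In sums over cells, fewer cells of a type and less RNA per cell cannot be told apart. Cells with a read of at least 5 of the 20 genes, after thinning, numbered 16 of 71 in pBrL mouse 1 (22.5%, exact 95% binomial interval 13.5% to 34%). They numbered 21 of 38 in pBrL mouse 2 (55.3%, 38.3% to 71.4%), 24 of 53 in pBr53L (45.3%, 31.6% to 59.6%) and 6 of 36 in p53L (16.7%, 6.37% to 32.8%). The share was thus lowest in p53L, but the interval of pBrL mouse 1 contains its value, and the deficient mice differed from each other by more than pBrL mouse 1 did from p53L. Of 20 genes of DNA replication and S phase, 8 lay higher and 1 lower, with a median log2 fold change of 0.17. Without the cycling cells, which are chosen by the G2/M genes themselves, 7 G2/M genes lay higher and 9 lower. The replication genes then had 7 higher and 6 lower, and of all tested genes 23.9% lay above and 19.6% below.

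**Figure D3:**
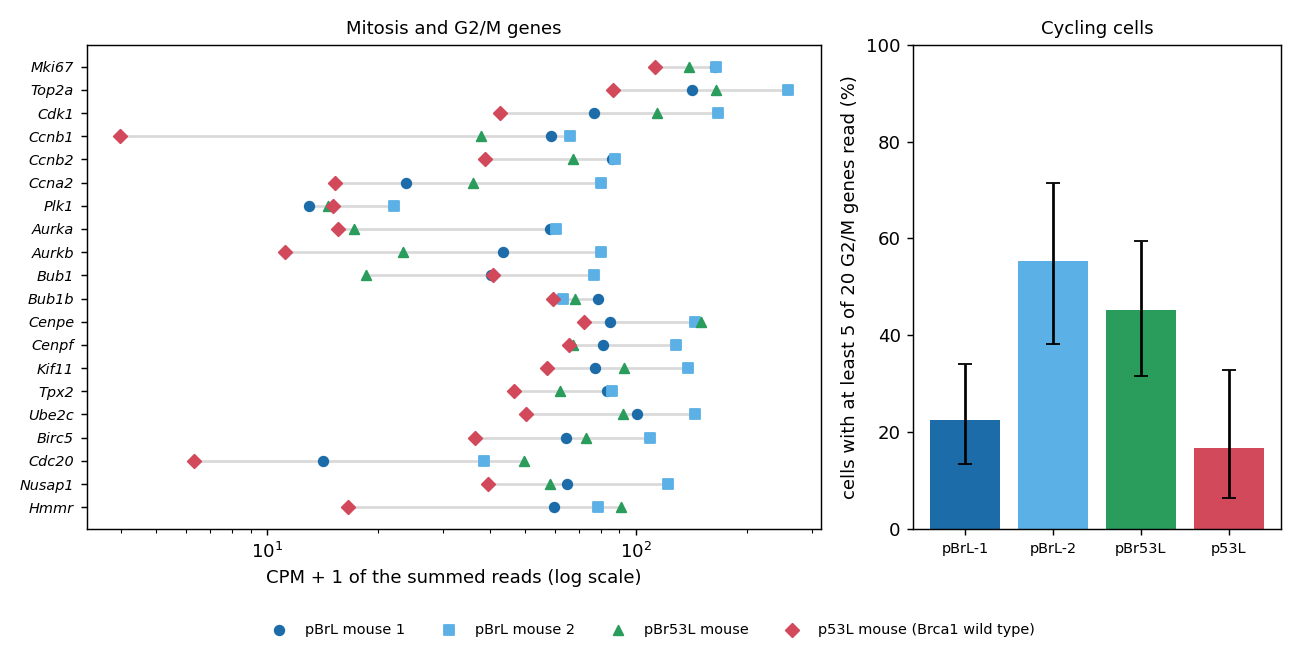
Left, CPM + 1 (log scale) of 20 mitosis and G2/M genes, 1 point per mouse, with p53L lowest for 18 of them. Right, share of cells with at least 5 of these genes read after thinning to 100000 reads, with exact 95% binomial intervals, from 16.7% in p53L to 55.3% in pBrL mouse 2.

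Many G2/M genes carry a cell cycle homology region near the start site. The letters TTTGAA, searched on both strands in the 250 bases before the start, were held by 7 of 17 genes with a promoter in the table and by 18.3% of all genes. The matches within 30 bases of the start, where the element usually lies, are those of *Cdk1*, *Cdc20*, *Top2a*, *Kif11* and *Ube2c*, and all 5 are shown. In *Top2a*, *Kif11* and *Ube2c* the match is on the opposite strand and reads TTCAAA.
Cdk1 (chr10:69352913-69352947, minus strand): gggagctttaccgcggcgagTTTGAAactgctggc
Cdc20 (chr4:118437344-118437381, minus strand): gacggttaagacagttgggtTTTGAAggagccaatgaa
Top2a (chr11:99024190-99024232, minus strand): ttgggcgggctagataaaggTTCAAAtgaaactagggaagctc
Kif11 (chr19:37376343-37376381, plus strand): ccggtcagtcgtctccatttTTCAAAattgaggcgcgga
Ube2c (chr2:164769880-164769925, plus strand): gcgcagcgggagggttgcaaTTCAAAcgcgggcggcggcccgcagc
*Cdc20* had 13.2, 37.7 and 48.7 CPM in the deficient mice against 5.32, and *Top2a* 141, 256 and 164 against 85.3. *Kif11*, a spindle motor, had 76.2, 137 and 91.5 CPM against 56.1, and *Ube2c*, which marks mitotic cyclins for degradation, 99.5, 144 and 90.8 against 49.4. As 18 of the 20 genes of the list lay higher, the side of these 5 says nothing about the element.

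The genes of homologous recombination and the partners of BRCA1 lay mostly higher too. Of 25, 14 lay above p53L in all 3 deficient mice and 4 below, 5 passed an unadjusted p under 0.05, and the median log2 fold change was 1.00. Over all tested genes 34.2% lay above and 18.5% below. Without cycling cells 5 of the list lay above and 2 below, against 23.9% and 19.6% of all tested genes. Summed over the list, the level was 494, 591 and 488 CPM against 326. The log2 difference of this sum was 0.68 with all cells and 0.67 without cycling cells. *Trp53bp1*, which counters BRCA1 in the choice of repair pathway, had 73.5, 24.8 and 47.1 CPM against 5.98 (edgeR adjusted p 0.357). Others were rarely read. *Fancd2*, of the Fanconi pathway, had 2.68, 39.5 and 16.8 CPM and 0 reads in p53L, and it was read in 3, 7 and 7 thinned cells of the deficient mice. *Brca2* lay the other way, at 12.95, 12.8 and 18.1 CPM against 23.8. Of 20 p53 target genes, 7 lay higher and 7 lower. *Cdkn1a*, the p53-driven inhibitor of the cell cycle, had 86.98, 120 and 81.03 CPM against 63.7 (edgeR adjusted p 0.733).

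Hormone-sensing cells were few. With at least 3 of 7 markers read, they numbered 0, 2 and 2 in the deficient mice and 3 in p53L. Of 13 hormone-sensing genes tested, 7 lay lower and 1 higher in all 3 deficient mice, against 18.5% and 34.2% of all tested genes. The summed level of the list was 265, 353 and 610 CPM against 733. This sum rested on single cells: the top cell held 46.9% of the mean CPM over cells in pBrL mouse 2, 58.7% in pBr53L and 49.8% in p53L. *Prlr*, the prolactin receptor, was read in more cells and had 162, 182 and 167 CPM against 221 (edgeR adjusted p 0.612).

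Immune-related genes set pBr53L apart rather than the deficient arm. MHC class II genes, which present antigen to helper T cells, summed to 66.2 and 30.8 CPM in the pBrL mice, 1655 in pBr53L and 47.1 in p53L. Among the 4 pregnant mice pBr53L was the high one, and the virgin deficient mouse vBrL was high too, at 1077 CPM. *Cd74*, their chaperone, was read in 41 of 53 thinned cells of pBr53L and in 5 of 36 of p53L, at 620 and 12.9 CPM. A single cell held 52.1% of the mean CPM over cells of the class II list in pBr53L, and the virgin vBr53L mouse on the same chip had 41.1 CPM. Genes of the MHC are close copies of each other, and reads can be split among them. Immune cell markers summed to 64.3 CPM in pBr53L against at most 14.9 in the others, and their part in these values was not tested. Interferon-stimulated genes summed to 871, 2217 and 4260 CPM in the deficient mice and 2011 in p53L, so p53L lay inside their range. In pBrL mouse 2 a single cell held 62.9% of the mean CPM over cells of this list. MHC class I presentation genes summed to 10143, 8667 and 16368 CPM against 8740.

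**Figure D4:**
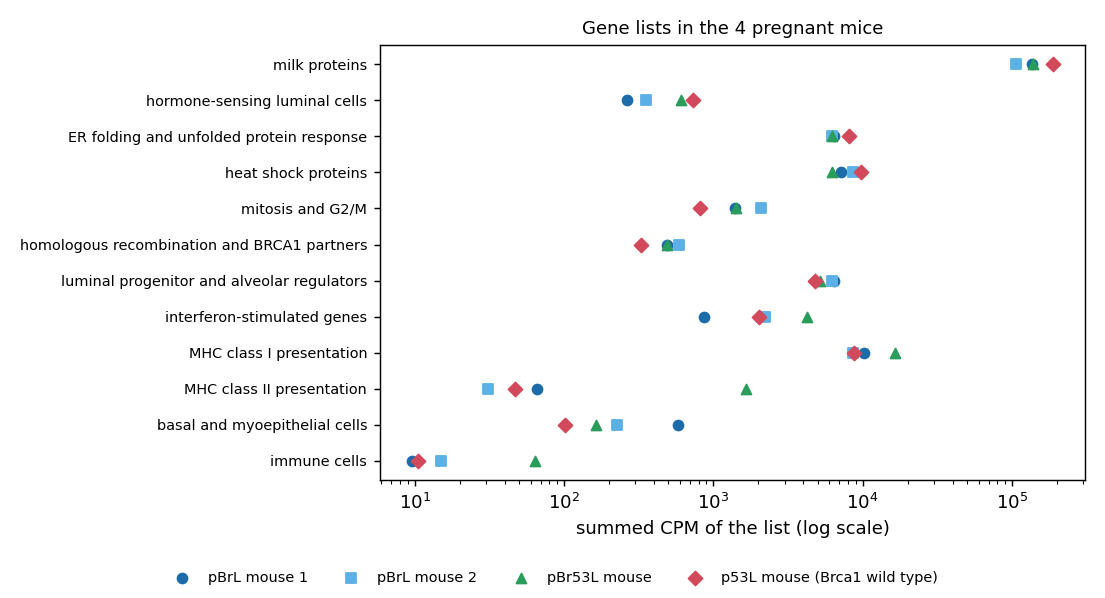
Summed CPM (log scale), without TMM scaling, of 12 gene lists, 1 point per mouse. With TMM-scaled CPM the log2 difference of the alveolar regulator list was 0.10. The p53L mouse lies highest for milk proteins, hormone-sensing, ER folding and heat shock genes, lowest for G2/M, homologous recombination, alveolar regulator and basal genes, and inside the deficient range for interferon and MHC genes, where pBr53L stands apart.

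Other lists gave smaller or mixed differences. Of all tested genes, 34.2% lay higher and 18.5% lower in CPM, and 28.7% and 24.3% with TMM-scaled CPM. Of 24 genes of fatty acid uptake, synthesis and milk fat, 7 lay higher and 6 lower in CPM and 2 higher and 10 lower with TMM-scaled CPM, and the sums were 17252, 11897 and 14031 CPM against 14249. *Fabp3*, which carries fatty acids in the cell, had 766, 438 and 685 CPM against 1007, while *Plin2*, a coat protein of lipid droplets, had 4092, 3545 and 4520 against 3099. Cholesterol synthesis genes had 4 of 20 higher and 5 lower. Secreted defense proteins had 1 of 14 higher and 6 lower, and NF-kappaB genes 6 of 20 higher and 2 lower in CPM and 4 and 3 with TMM-scaled CPM. Immediate early genes had 10 of 20 higher and 5 lower, with *Nr4a1* at 290, 235 and 108 CPM against 67.4. The 5 include *Hspa1a*, a named gene whose side the rule fixed. Luminal keratin and junction genes had 6 of 10 higher and 0 lower in CPM, and 4 higher and 3 lower with TMM-scaled CPM. Basal genes had 5 of 10 higher and 1 lower.

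Whether p53L was the mouse most unlike the rest was asked over the whole profile. The Spearman correlation of log2(CPM + 1) over the 14957 genes was 0.904, 0.893 and 0.884 for the pairs of deficient mice, and 0.888, 0.877 and 0.876 for the pairs with p53L. These ranges overlapped. The difference of the means was 0.0134 (exact two-sided permutation p = 0.5, n = 4 mice, smallest possible p 0.25). Setting pBrL mouse 1, pBrL mouse 2 or pBr53L apart in place of p53L gave -0.0163, -0.00229 and 0.00519, so the value of p53L was the highest. The p counts -0.0163 because it is larger in size, but its sign means that pBrL mouse 1 was the most like the others. With 30 cells per mouse pBr53L had the highest value, 0.0140 against 0.00176 for p53L. Genes averaging 10 CPM or more that differed more than 4-fold numbered 334, 353 and 440 for the deficient pairs and 689, 771 and 687 for the pairs with p53L. Here the pairs with p53L all lay above the others, and most of these genes were lower in p53L (519 of 689, 589 of 771 and 500 of 687). With 30 cells drawn per mouse the shares were 8.48% to 10.8% for the deficient pairs and 11.7% to 13.3% for the pairs with p53L.

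**Figure D5:**
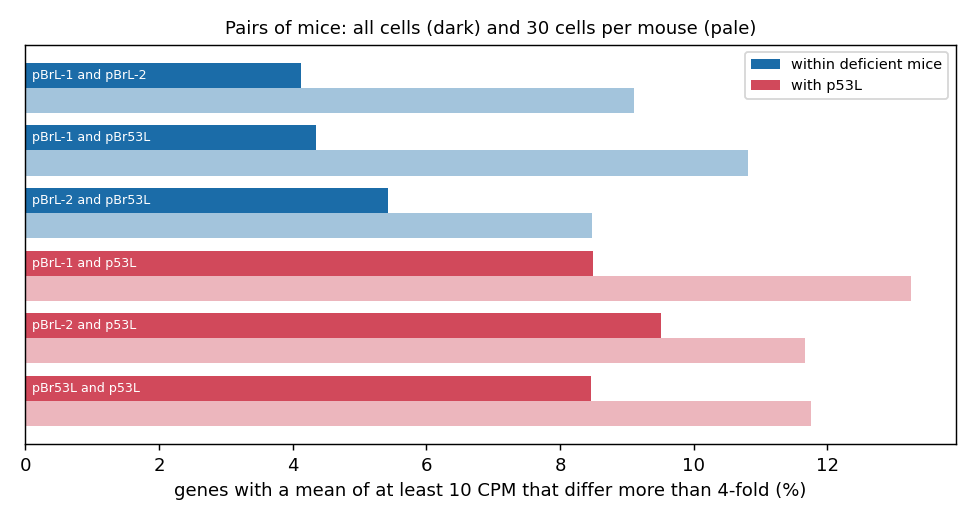
Share of the genes averaging 10 CPM or more that differ more than 4-fold within each pair of mice, with all cells (dark) and with 30 cells per mouse (pale). Pairs with p53L run from 8.47% to 9.51% and the other pairs from 4.12% to 5.42% with all cells, and both kinds are higher with 30 cells.

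The genes near the deleted loci were looked at because mice of mixed background can differ around a targeted allele. Within 5 Mb on either side of *Brca1*, 22 of 200 tested genes (11%) passed an unadjusted p under 0.05, and around *Trp53* 5 of 143 (3.50%), none of them called. The share on single chromosomes ran from 6.54% on chromosome 15 to 12.6% on chromosome 18.

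Last, the difference between deficient and wild type mice, called the effect here, was compared between pregnancy and the virgin state. The virgin mice were vBrL and vBr53L (deficient) and v53L (wild type). As each stage had a single wild type mouse, the effect cannot be separated from that mouse. Of 15550 genes, 74 differed in this effect (edgeR adjusted p under 0.05, 0.476% of the genes), 8 with a more positive and 66 with a more negative value in pregnancy. In 73 of the 74, v53L lay outside the range of the other 6 mice, and in 59 it was below 1 CPM. v53L held 0 cycling cells and 24 hormone-sensing cells among its 40, against 6 and 3 of 36 in p53L. Without the hormone-sensing cells the count was 380. Without the cycling cells, which left all 40 cells of v53L in place, it was 7. For *Ahcyl2* the effect differed (adjusted p 0.00629), with 46.3 and 35.6 CPM in vBrL and vBr53L and 89.3 in v53L.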

How the data were processed

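The deposited table held counts of reads per gene and cell. Per the labels and the methods, the authors filtered reads with sickle, trimmed them with Trim Galore 0.4.1, aligned them to mm10 with STAR 2.5.3a and counted them with Subread 1.5.3. The annotation and strand setting are not given in the sources used here. The libraries carry no molecular identifiers, so amplified copies count as separate reads, and reads of overlapping genes may not be separable. Capture sites had been inspected for doublets, and no further doublet removal was made. No 2 cells held the same values, and all 477 columns were mapped. The table holds 0 mitochondrial genes.

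Counts were summed per mouse and tested with edgeR 4.0.16 (glmQLFit, filterByExpr, TMM; R 4.3.3) in a 1-factor design of 4 mice. Alternatives used DESeq2 1.42.0 and limma 3.58.1. Symbols were placed on GENCODE vM21 (99.6% matched). Cells were thinned to 100000 reads for shares, and 0 cells were below this. The pseudocount was 1 CPM. Where p53L had 0 reads, the bound used a floor of 3 reads per mouse. Named genes followed the rule in the text (12 per direction, by fold change if called, otherwise by unadjusted p, without unnamed gene models). Members, lists and tests were chosen with earlier results of these data known. Nothing in the labels says how mice were bred or processed in parallel. The p-values of the pregnancy test rest on the spread among the deficient mice, since p53L is alone in its arm and its own spread was not measured. The edgeR fit was tested on simulated data with known changes. Some genes are not reported here by name.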

Additional observations from a re-analysis of the deposited data

Results flagged for a closer look

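Genes of the lists and named genes are given here where the difference between deficient and wild type mice was not alike in pregnant and virgin mice. The test was an edgeR quasi-likelihood interaction term (15550 genes, adjusted p under 0.05). Each stage had a single wild type mouse, so mouse, chip and genotype cannot be told apart. Among G2/M genes these were *Mki67* (0.00280), *Top2a* (0.00629), *Cdk1* (0.00629), *Birc5* (0.0142), *Kif11* (0.0142), *Tpx2* (0.0142), *Cenpe* (0.0204), *Hmmr* (0.0320) and *Ube2c* (0.0383), the adjusted p standing in brackets. All 9 had at most 0.124 CPM in v53L, which held 0 cycling cells. *Mcm5* (0.00757), *Rrm2* (0.0142) and *Brca2* (0.0333), which act in replication and repair, had at most 0.248 CPM there.

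The other genes flagged by the same test were *Ahcyl2* (adjusted p 0.00629), *Rspo1* (0.00629), *Krt14* (0.00629), *Glycam1* (0.00776), *Thrsp* (0.0142) and *Lalba* (0.0142). *Rspo1*, *Krt14* and *Glycam1* had 0 CPM in v53L and *Thrsp* 0.347 CPM, while *Ahcyl2* had 89.3 and *Lalba* 698 CPM there, the latter against 18.1 and 14.1 CPM in the deficient virgin mice. v53L is 1 mouse of 40 cells.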

How the results depend on the processing

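The count of genes called in pregnancy was 2. It was 1388 with DESeq2, 28 without the low-count filter, 45 with the *Trp53* allele as a covariate (which leaves 1 residual degree of freedom), 4 without hormone-sensing cells, 1 without the p53L cell with the most *Ereg* reads (chosen after seeing the data), and 0 with 30 cells per mouse, with limma on the mean over cells and without cycling cells (cells chosen by the G2/M genes). At an unadjusted p under 0.05 those 3 settings gave 864, 1214 and 718 genes. Leaving out each deficient mouse gave 2 to 25 calls (8 without pBrL mouse 2 and 25 without pBr53L). With library size alone, 1157 genes were higher and 300 lower at an unadjusted p under 0.05, against 912 and 508. The count of 74 for the difference between stages was 1408 with DESeq2, 229 without the filter, 0 with limma (1279 at an unadjusted p under 0.05), 7 without cycling cells and 380 without hormone-sensing cells, and 76 to 221 with a mouse left out (189 without vBrL, 221 without vBr53L). The causes were not tested. The difference in profile correlation kept its sign, from 0.00176 with 30 cells per mouse to 0.0376 over genes with at least 10 CPM. All 374 values of the 25 named genes, *Ereg* included, kept their direction, with 61 gaining and 8 losing the call. For all but *Ereg* this direction was largely fixed by the rule, which required all deficient mice on one side of p53L. Of 208 list differences, 186 moved by less than 1 SD of the deficient mice. This SD reached 3.03 in log2 for MHC class II, so a change of sign can lie within it (1.66 to -0.057 without pBr53L). Without cycling cells the G2/M list changed from 0.98 to -1.45 and the DNA replication list from 0.27 to -0.18. p53L and v53L could not be left out, since each is the only mouse of its arm. No paired analysis was made. In the pregnancy test every mouse was on another chip. Between stages, pBr53L and vBr53L shared SC7 and p53L and v53L shared SC9, but chip was not in the model. p53L had the fewest cells and reads, so genes read in few cells are the least certain there.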
